A study of Mus musculus with 3 samples.

Results

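The 10 genes described here encode the 6 GATA zinc finger factors (*Gata1* to *Gata6*) and the core of the complex that several of them join, *Tal1*, *Lyl1*, *Lmo2* and *Ldb1*. They were taken by symbol from a table of 24346 genes, and each symbol had 1 row. The table holds bulk RNA-seq values of adult lung endothelial cells (ECs) from wild type C57BL/6J mice, which the study collected next to ECs of other organs to ask how the vasculature differs between them. The mice were males aged 6 to 8 weeks. By the study's methods, an antibody against VE-cadherin was injected intravenously before the lungs were digested, and CD31+ CD45- Podoplanin- cells were sorted. The cells were not cultured. There were 3 libraries, called S38, S44 and S52 after their labels, of 1 condition, so there was no comparison between groups and no p-value. The labels do not say whether the libraries came from separate mice or from pools, so the spread between them may be partly technical. Values are FPKM, fragment numbers divided by gene length and by library size, so that levels of different genes can be set side by side. The deposited values imply about 37650000 fragments for S38, 38600000 for S44 and 34200000 for S52.

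GATA factors bind the DNA letters GATA through paired zinc fingers. In blood and endothelial cells a GATA factor works in a multiprotein complex with Tal1 or its relative Lyl1, basic helix-loop-helix proteins that pair with E proteins to bind E-boxes. Lmo2, which holds LIM domains and does not bind DNA itself, bridges these proteins, and Ldb1 binds Lmo2 and self-associates, which joins distant sites. *Gata2*, *Tal1* and *Lmo2* are known from haematopoietic and endothelial development, *Gata1* from erythroid, megakaryocytic and mast cells, *Gata3* from T cells and innate lymphoid cells, and *Gata4* to *Gata6* from heart, endoderm, mesothelium and smooth muscle.

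The sequences below show how far reads could be shared between family members and which of the complex's own DNA letters stand at the members' promoters. Among 51-base windows, the read length, none was shared between members in the GENCODE M21 transcripts, *Gata6* included. The longest exact runs of the pairs given below lie in coding exons and are far shorter than a read. Runs with *Gata6* are not reported here. The pair *Gata1* and *Gata4* shared 24 bases (chrX:7961981-7962004 and chr14:63204646-63204669, both minus strand, GRCm38), and *Gata2* held the first 23 of them at chr6:88202484-88202506 on the plus strand. *Gata2* and *Gata5* shared another run of 24 bases (chr6:88204670-88204693, plus strand, and chr2:180328322-180328345, minus strand). *Gata4* and *Gata5* shared 26 bases across an exon junction, and *Tal1* and *Lyl1* shared 14 bases (chr4:115068306-115068319 and chr8:84703927-84703940, both plus strand).
Gata1 and Gata4: cactacctgtgcaatgcctgtggc
Gata2 and Gata5: gtgtgcaacgcctgtggcctctac
Gata4 and Gata5: ggcctctacatgaagctccatggggt
Tal1 and Lyl1: ttcaccaacagccg

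Promoter windows from 250 bases before to 50 bases after an annotated start were given by RefSeq (GRCm38.p6) for 7 of the 10 members, in 11 windows, with no entry for *Gata4*, *Gata6* and *Lmo2*. They were searched on both strands for GATAA, the core letters that GATA factors bind, for CAGATG, an E-box bound by Tal1, and for CCGGAA, an ETS core of the kind Erg and Fli1 bind. GATAA stood in 2 of the 11 windows (18.2%), against 25.4% of all 32851 promoters and 16.6% of the 11312 promoters of genes at or above 1 FPKM on average. CAGATG stood in 1 (9.09%, against 17.2% and 11.5%) and CCGGAA in 2 (18.2%, against 14.9% and 27.4%). The windows with a match that are printed, from *Tal1*, *Ldb1* and *Lyl1*, carry the matches in capitals, spelled as the motif or, for a match on the opposite strand, as its reverse complement. The *Tal1* window (chr4:115056176-115056475, plus strand) held GATAA 205 bases before the start and CAGATG 10 bases after it. The *Ldb1* window at the third of its starts, inside the gene (chr19:46037021-46037320, minus strand), held GATAA 240 and 200 bases before the start. The *Lyl1* window (chr8:84701207-84701506, plus strand) held CCGGAA 181 and 67 bases before the start, and a window of *Gata3* held it once. The *Gata1* window (chrX:7967861-7968160, minus strand) is shown because its gene was listed at 0 in S52 only, and it held none of these letters. Those of *Gata2*, in 2 windows, and of *Gata5* held none either. A match describes the letters only, and their absence from a window says nothing about binding elsewhere.
Tal1: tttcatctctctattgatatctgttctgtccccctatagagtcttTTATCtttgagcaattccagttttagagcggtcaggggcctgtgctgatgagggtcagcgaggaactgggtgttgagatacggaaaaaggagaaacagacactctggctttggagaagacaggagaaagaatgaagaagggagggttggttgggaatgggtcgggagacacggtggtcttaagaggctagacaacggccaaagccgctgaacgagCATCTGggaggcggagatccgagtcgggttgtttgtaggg
Ldb1: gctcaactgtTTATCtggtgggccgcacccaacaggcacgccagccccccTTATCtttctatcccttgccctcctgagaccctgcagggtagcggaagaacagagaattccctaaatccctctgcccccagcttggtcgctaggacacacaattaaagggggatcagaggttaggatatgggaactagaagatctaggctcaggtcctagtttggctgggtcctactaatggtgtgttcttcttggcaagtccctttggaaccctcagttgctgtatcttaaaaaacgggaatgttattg
Lyl1: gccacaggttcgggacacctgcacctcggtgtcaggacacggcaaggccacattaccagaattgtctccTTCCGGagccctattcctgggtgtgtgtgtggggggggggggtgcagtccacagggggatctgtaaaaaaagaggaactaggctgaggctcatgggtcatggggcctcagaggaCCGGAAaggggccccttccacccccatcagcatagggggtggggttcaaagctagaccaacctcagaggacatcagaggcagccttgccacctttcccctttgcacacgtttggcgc
Gata1: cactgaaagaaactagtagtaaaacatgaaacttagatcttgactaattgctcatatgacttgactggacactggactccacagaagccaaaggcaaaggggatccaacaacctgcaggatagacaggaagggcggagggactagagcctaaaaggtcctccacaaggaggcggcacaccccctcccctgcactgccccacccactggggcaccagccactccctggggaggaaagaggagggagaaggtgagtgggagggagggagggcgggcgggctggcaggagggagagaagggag

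In these ECs the complex was represented by high *Lmo2*, *Gata2* and *Ldb1*, intermediate *Tal1* and low *Lyl1*, while the other GATA genes were at a small fraction of *Gata2*. Of the 10 members, 8 were detected, which here means a mean FPKM of 1 or more, as were 48.3% of all genes. In every library 7 of them reached 1 FPKM, the exception being *Gata1*. Sorted by mean FPKM the order was *Lmo2*, *Gata2*, *Ldb1*, *Tal1*, *Gata1*, *Lyl1*, *Gata6*, *Gata3*, *Gata5* and *Gata4*, with the listed 0 of *Gata1* in S52 counted as it stands. In the deposited values, the lowest library of each of the first 4 was above the highest library of the next gene. So were *Lyl1* over *Gata6* and *Gata3* over *Gata5*. With each library rescaled to a sum of 1000000 FPKM, the lowest *Lmo2* was 72.9 and the highest *Gata2* 90.9. The lowest *Gata2* was then 63.2 and the highest *Ldb1* 64.5, so both pairs overlapped. Within each library *Lmo2* was above *Gata2*, and *Gata2* above *Ldb1*, in 3 of 3. In the deposited values the ranges overlapped for *Gata1* and *Lyl1*, for *Gata6* and *Gata3*, and for *Gata5* and *Gata4*. In the last pair *Gata5* was higher in 3 of 3 libraries.

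**Figure D1:**
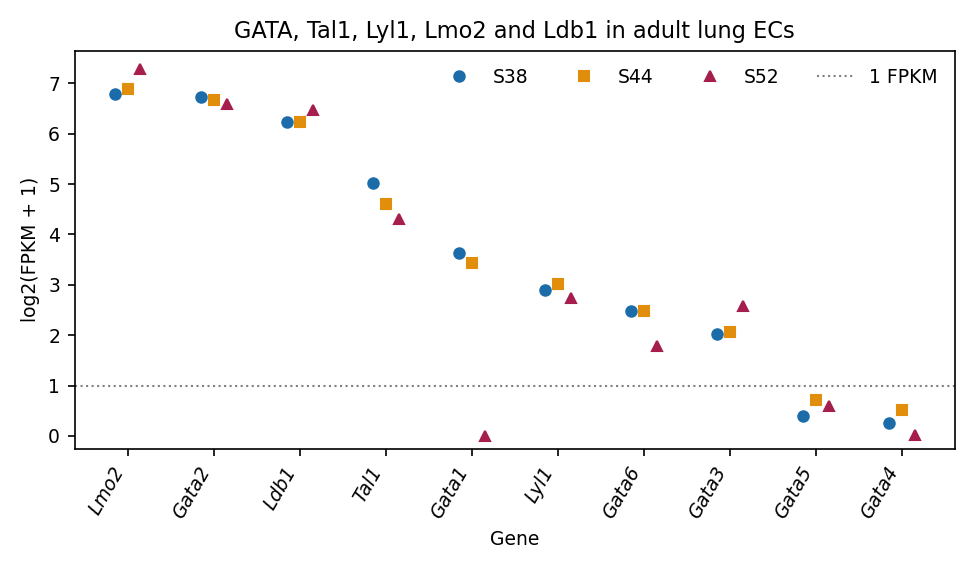
Level of each of the 10 genes on the log2(FPKM + 1) scale (vertical axis) in the 3 libraries (one symbol per library), sorted by mean FPKM, with the 1 FPKM threshold as a dotted line. *Lmo2*, *Gata2*, *Ldb1* and *Tal1* lie on top, *Gata1* is listed at 0 in S52 only, and *Gata5* and *Gata4* lie below the threshold in every library.

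*Gata2*, which sustains haematopoietic stem cells and is needed in endothelium for lymphatic valves, was the leading GATA gene (chr6:88193891-88207032, plus strand). It stood at 104.9 FPKM in library S38, 101.4 in S44 and 94.9 in S52. In the deposited values the libraries lay close together, with a mean of 100.4 ± 5.06 FPKM (SD, n = 3) and the highest 1.11-fold above the lowest. The mean was above that of 96.4% of all genes. With each library rescaled to a sum of 1000000 FPKM, *Gata2* spread more widely, at 90.9, 63.2 and 66.9 in S38, S44 and S52 (SD 15.1). The sums before rescaling were 1153890, 1603600 and 1419350 FPKM in that order. They include small RNA rows of very high FPKM, such as a microRNA row at 99242 in S38, 95930 in S44 and 0 in S52. A change under this rescaling can therefore reflect such rows as well as the gene itself, and their part was not tested. Within each library *Gata2* made up 84.3%, 84.5% and 92.2% of the summed FPKM of the 6 GATA genes in the order S38, S44 and S52, on average 87.0 ± 4.54% (SD, n = 3). The sum itself was 124.5, 120.0 and 102.9 FPKM in that order. Both count *Gata1* in S52 at its listed 0. With *Gata1* left out of the sum, an alternative chosen after seeing the data, the share of *Gata2* was 92.8%, 91.9% and 92.2%, on average 92.3 ± 0.423% (SD, n = 3), of sums of 113.1, 110.2 and 102.9 FPKM. Because these are bulk samples, fewer cells of a type and less RNA per cell cannot be told apart for any gene here.

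*Gata1*, the erythroid and megakaryocytic factor (chrX:7959260-7978071, minus strand), was at 11.4 FPKM in S38 and 9.77 FPKM in S44 and was listed at 0 in S52. It gave 9.12% and 8.14% of the GATA sum in S38 and S44. S38 and S44 were alike and S52 stood apart from both. A value of exactly 0 in a table without counts can be a failed estimate, so no mean or fold is given for *Gata1*. Among the 8119 genes with at least 5 FPKM in S38 and S44, 41 (0.505%) were listed at 0 in S52, 17 of them protein coding. The reverse patterns, 0 in S38 or in S44 and at least 5 FPKM in both other libraries, were met by 8 and 3 genes, none of them protein coding.

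The platelet genes were low in the library in which *Gata1* was listed at 0. All 11 genes of a platelet and megakaryocyte list were lowest in S52, with a summed level of 1988 FPKM in library S38, 1589 in S44 and 53.5 in S52, and none of them was listed at 0. *Pf4*, a platelet chemokine, was at 329, 284 and 3.76 FPKM in that order. *Nfe2*, a transcription factor needed for platelet formation, was at 59.4, 42.9 and 2.28 FPKM. S38 and S44 lay close together for both, and S52 far below. *Itga2b*, the platelet integrin CD41, was at 149, 148 and 9.54 FPKM. Lists of the other lineages that use *Gata1* differ in genes and number, so their sums are not set against the platelet sum. Of the 8 mast cell and basophil genes, 2 reached a mean of 1 FPKM and 6 were lowest in S52. The sum was 13.3, 11.5 and 2.46 FPKM. *Hdc* was at 9.29, 8.04 and 2.46 FPKM, and *Mcpt4* was at 3.35 and 2.54 FPKM and listed at 0 in S52. *Ms4a2*, a receptor chain that defines mast cells, was listed at 0 in every library. Of 10 erythroid genes, *Hbb-bt* and *Ahsp* had no row, and the other 8 summed to 398, 791 and 97.2 FPKM, mostly from globins. Of these 8, 6 were lowest in S52. *Alas2* was at 4.37, 13.9 and 3.56 FPKM. *Klf1*, the erythroid master factor, was listed at 0 in S38 and S44 and at 0.192 FPKM in S52. Being lowest in S52 was not particular to the platelet list. It also held for 9 of 9 T cell and type 2 innate lymphoid genes and 7 of 8 leukocyte genes. The same was true of 5 of 5 alveolar type 2 and 5 of 5 airway genes. The part of platelets or of other blood cells in the *Gata1* values was not tested.

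The remaining 4 GATA genes were low, and they differed in direction between libraries. *Gata3* (chr2:9857078-9890034, minus strand), the T helper 2 and type 2 innate lymphoid factor, was at 3.05 FPKM in library S38, 3.20 in S44 and 4.997 in S52, with a mean of 3.75 ± 1.08 FPKM (SD, n = 3). It was highest in S52, where its share of the GATA sum was 4.85% against 2.45% and 2.66%. A list of 9 T cell and type 2 innate lymphoid genes was lowest in S52 in 9 of 9, with sums of 8.75, 7.24 and 1.36 FPKM. *Cd3e*, a chain of the CD3 complex of T cells, was at 0.206 and 0.261 FPKM and listed at 0 in S52. *Ptprc*, which encodes the CD45 antigen that the sort excluded, was at 4.30, 2.06 and 0.434 FPKM. The part of lymphocytes in the *Gata3* values was not tested.

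*Gata6*, a factor of lung epithelium, smooth muscle and heart on the plus strand of chromosome 18, was at 4.60 FPKM in library S38, 4.61 in S44 and 2.46 in S52, with a mean of 3.89 ± 1.24 FPKM (SD, n = 3). S38 and S44 were nearly equal and S52 was lower by 0.70 on the log2(FPKM + 1) scale against each. Its share of the GATA sum was 3.31 ± 0.800% (SD, n = 3), and *Gata2* exceeded it by 4.41 ± 0.34 (SD, n = 3) on the log2(FPKM + 1) scale. Alveolar type 2 genes were lowest in S52 in 5 of 5, with sums of 3756, 3156 and 760 FPKM, and airway genes in 5 of 5, with 2780, 2316 and 401 FPKM. Mural genes were lowest in S52 in 0 of 7, with sums of 218, 131 and 202 FPKM. The part of these cells in the *Gata6* values was not tested.

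*Gata5* and *Gata4*, both cardiac and endodermal factors, did not reach 1 FPKM in any library. *Gata5* (chr2:180325133-180334699, minus strand), which the study also examined in kidney ECs, was at 0.318 FPKM in library S38, 0.651 in S44 and 0.514 in S52, about 37, 79 and 55 fragments. *Gata4* (chr14:63198922-63271692, minus strand) was at 0.195, 0.427 and 0.0182 FPKM in the same order, about 24, 54 and 2 fragments. The S52 value of *Gata4* lies below the 0.0272 FPKM of 3 fragments, the limit used here for a detectable level (counting error only), so no fold is given. Mesothelial genes, 4 in number, were all listed at 0 in S52 and summed to 2.34 FPKM in S38 and 6.14 FPKM in S44. Of 10 cardiomyocyte genes, 6 were detected and 8 were lowest in S52, with sums of 85.4, 50.3 and 47.4 FPKM. Among these 8, *Tnnt2* was at 7.48, 3.96 and 0.854 FPKM, and *Myl7* was at 20.4 and 11.7 FPKM and listed at 0 in S52. Only 1 of the 10, *Actc1*, cardiac actin, was highest in S52, at 18.6, 13.4 and 30.6 FPKM. *Nkx2-5*, a cardiac transcription factor, was listed at 0 in all 3 libraries. The part of these cells in the *Gata4* and *Gata5* values was not tested.

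**Figure D2:**
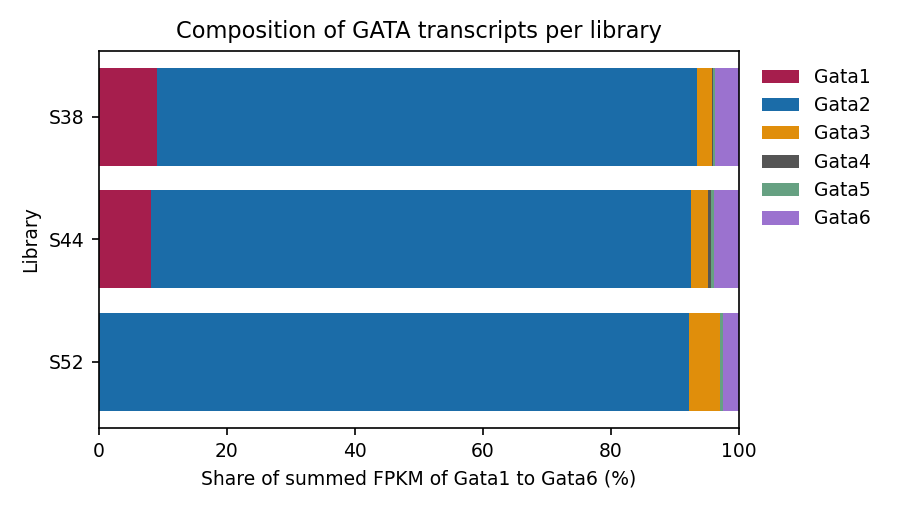
Share of each GATA gene in the summed FPKM of *Gata1* to *Gata6* (horizontal axis, percent) in each library (one bar each). *Gata2* fills 84.3% to 92.2% of the bar in every library, and the *Gata1* segment is present in S38 and S44 and absent in S52, where the gene is listed at 0.

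Of the 2 helix-loop-helix members *Tal1* was the higher. *Tal1*, which is required for all blood formation and for vascular remodelling (chr4:115056426-115071755, plus strand), was at 31.5 FPKM in library S38, 23.5 in S44 and 18.7 in S52, with a mean of 24.6 ± 6.47 FPKM (SD, n = 3). The highest library was 1.68-fold above the lowest, the widest spread among the 4 most abundant members. *Lyl1* (chr8:84701457-84704715, plus strand), its paralogue in haematopoietic progenitors and mature endothelium, was at 6.497, 7.11 and 5.70 FPKM, with a mean of 6.44 ± 0.706 FPKM (SD, n = 3). *Tal1* exceeded *Lyl1* by 2.12, 1.59 and 1.56 on the log2(FPKM + 1) scale, on average 1.75 ± 0.31 (SD, n = 3), and made up 78.8 ± 3.59% of their sum. *Tal1* is also a megakaryocyte gene, and its order over the libraries, highest in S38 and lowest in S52, was that of the summed platelet list. That order was not particular to platelets. The summed leukocyte, alveolar type 2, airway and fibroblast lists had it too, while the endothelial, erythroid and mural lists did not. The part of platelets in the *Tal1* values was not tested.

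*Lmo2* was the most abundant member and *Ldb1* the third. *Lmo2*, the bridging LIM-only protein (chr2:103957986-103981878, plus strand), was at 108.8 FPKM in library S38, 116.8 in S44 and 154.7 in S52, with a mean of 126.8 ± 24.5 FPKM (SD, n = 3), above 97.1% of all genes. *Ldb1*, the self-associating LIM-domain binding cofactor (chr19:46031570-46045214, minus strand), was at 74.4, 73.8 and 88.2 FPKM, with a mean of 78.8 ± 8.13 FPKM (SD, n = 3), above 95.5% of all genes. Both were highest in S52. *Lmo2* exceeded *Ldb1* by 0.54, 0.66 and 0.80 on the log2(FPKM + 1) scale, on average 0.67 ± 0.13 (SD, n = 3). *Lmo2* exceeded *Tal1* by 1.76 in S38, 2.27 in S44 and 2.98 in S52, so the difference was largest in S52, where *Tal1* was lowest and *Lmo2* highest. *Gata2* was below *Lmo2* by a difference of -0.05 in S38, -0.20 in S44 and -0.70 in S52 on the same scale.

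Most further components of the complex were present. Of 25 partner genes, chosen from textbook knowledge of the complex, 18 were detected. Of the E proteins that pair with Tal1 and Lyl1, *Tcf4* was at 38.3, 37.3 and 35.1 FPKM and *Tcf3* at 18.6, 17.1 and 16.7 FPKM, while *Tcf12*, at 24.2, 27.0 and 33.8 FPKM, was highest in S52. Summed, they stood at 82.7 ± 2.47 FPKM (SD, n = 3), which was 2.14 times the sum of *Tal1* and *Lyl1* in S38, 2.66 times in S44 and 3.50 times in S52. *Ldb2*, the paralogue of *Ldb1*, was the highest partner, at 134.6, 157.8 and 175.7 FPKM, and exceeded *Ldb1* by 0.97 ± 0.12 (SD, n = 3) on the log2(FPKM + 1) scale. *Ldb1* thus gave 33.6 ± 1.88% (SD, n = 3) of the summed *Ldb1* and *Ldb2*. Of the *Ssbp* genes, whose products protect Ldb proteins from degradation, *Ssbp4* was at 35.8, 40.9 and 36.4 FPKM, *Ssbp3* at 20.8, 17.4 and 20.01 FPKM and *Ssbp2* at 2.31, 1.56 and 2.31 FPKM.

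*Lmo2* stood above its own relatives. *Lmo4*, the widely expressed LIM-only gene, was at 29.1, 27.8 and 42.6 FPKM, and *Lmo2* exceeded it by 1.91 ± 0.11 (SD, n = 3) on the log2(FPKM + 1) scale. *Lmo1* had a mean below 1 FPKM and *Lmo3* was listed at 0 in every library. *Tal2*, the third helix-loop-helix relative, was at 0.0533 FPKM in S38 and 0.119 FPKM in S52 and was listed at 0 in S44.

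Of the corepressors, *Cbfa2t3* (Eto2), which joins the Tal1 complex, was at 15.8, 13.8 and 16.8 FPKM, *Kdm1a*, a histone demethylase, at 20.6, 18.8 and 22.3 FPKM, and *Zfpm1* (Fog1), the GATA cofactor, at 6.98, 5.69 and 6.88 FPKM. *Zfpm1* in S52 was close to its S38 level, although *Gata1*, its best known partner, was listed at 0 there. *Gfi1b*, a repressor of erythroid and megakaryocytic cells, was at 0.958 and 0.647 FPKM and listed at 0 in S52. The ETS factors that share sites with the complex were led by *Erg*, at 59.2, 43.1 and 84.8 FPKM, and *Fli1* was at 20.3, 21.5 and 23.5 FPKM. *Runx1*, the blood-forming partner, was at 1.19, 0.494 and 0.573 FPKM, whereas *Cbfb*, the subunit Runx proteins share, was at 28.6, 31.7 and 39.5 FPKM. The 7 partner genes with a mean below 1 FPKM were *Runx1*, *Gfi1*, *Gfi1b*, *Tal2*, *Lmo1*, *Lmo3* and *Zfpm2* (Fog2).

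**Figure D3:**
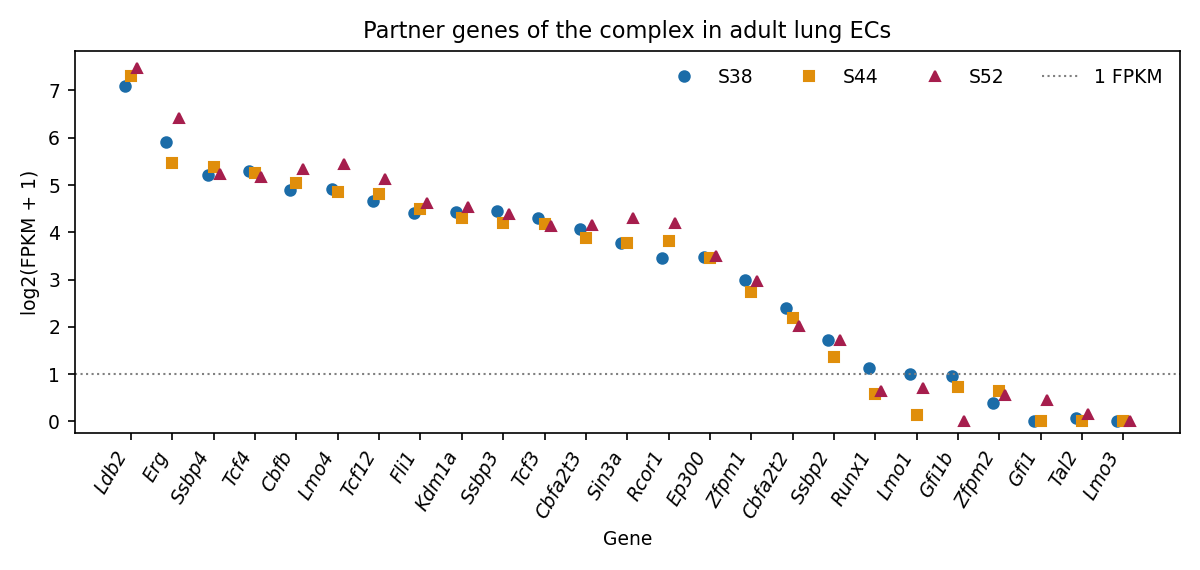
Level of the 25 partner genes on the log2(FPKM + 1) scale (vertical axis) in the 3 libraries, sorted by mean FPKM, with the 1 FPKM threshold as a dotted line. *Ldb2*, at 134.6 to 175.7 FPKM, is above all other partners, and 7 genes lie with their mean below the threshold.

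Genes described as targets of GATA2, TAL1 or LMO2 in endothelium were mostly among the abundant transcripts, and 13 of 14 were detected. They include *Cdh5* (VE-cadherin), at 877, 978 and 908 FPKM, and *Pecam1* (CD31), at 1125, 1216 and 1164 FPKM, the antigens used in the isolation. *Tek*, the angiopoietin receptor, was at 299, 354 and 346 FPKM and *Emcn*, endomucin, at 156, 181 and 267 FPKM. *Kdr* (VEGF receptor 2) was at 380, 360 and 237 FPKM and *Vwf* at 298, 314 and 235 FPKM, both lowest in S52. *Kit*, the stem cell factor receptor and a GATA2 target in progenitors, was at 91.1, 109.7 and 81.0 FPKM. *Edn1*, a vasoconstrictor gene with a GATA site in its promoter, was at 75.6, 42.4 and 96.7 FPKM. *Prox1*, the lymphatic factor that GATA2 acts on, was the exception, at 0.132, 0.173 and 0.598 FPKM. The list had no common direction between libraries, with 5 of 14 lowest and 4 of 14 highest in S52. Of all detected genes, 46.3% were lowest and 33.9% highest there. The median differences of the list in S52 were 0.06 against S38 and -0.11 against S44 on the log2(FPKM + 1) scale. *Cdh5*, *Pecam1*, *Tek*, *Kdr* and *Emcn* are also on the endothelial marker list used here.

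Between libraries the members had no common direction. Of the 8 detected members, 5 were lowest in S52 (*Gata1*, *Gata2*, *Gata6*, *Tal1* and *Lyl1*), against 46.3% of all detected genes, but *Gata2* left this set when each library was rescaled to a sum of 1000000 FPKM or to an equal endothelial median, where 40.5% and 39.8% of all detected genes were lowest in S52. The other 3 (*Gata3*, *Lmo2* and *Ldb1*) were highest in S52, against 33.9% of all detected genes, but *Ldb1* left this set under the rescaling to the sum. With 8 members, neither count sets them apart from the detected genes as a whole. None of the 7 members above 1 FPKM in every library had a highest library over 2-fold above its lowest. Counting the listed 0 of *Gata1* as a level makes this 1 of 8 members, against 20.1% of all detected genes, and without S52 no member did. Rescaled to the sum, 3 members passed 2-fold (*Gata1*, by its listed 0, *Gata6* and *Tal1*), against 27.7% of all detected genes. The median difference of all detected genes in S52 was -0.08 against S38 and -0.06 against S44 on the log2(FPKM + 1) scale, and -0.34 and 0.09 after that rescaling. Beside these medians, the difference of *Tal1* in the deposited values was -0.72 and -0.31, that of *Gata6* -0.70 and -0.70, that of *Lmo2* 0.50 and 0.40 and that of *Gata3* 0.56 and 0.52. The partner genes had 13 of 25 highest and 4 of 25 lowest in S52. These 25 include 7 with a mean below 1 FPKM, so the 33.9% and 46.3% of detected genes are not a like background. The 10 endothelial genes had sums of 6369, 7058 and 6291 FPKM in the order S38, S44 and S52.

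**Figure D4:**
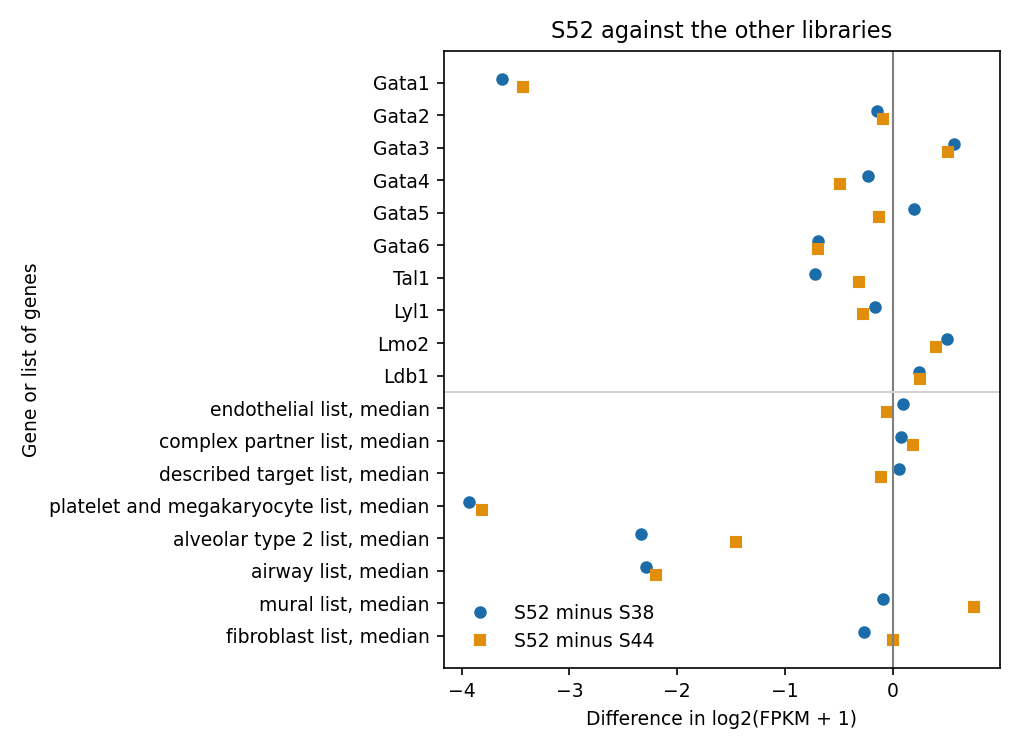
Difference in log2(FPKM + 1) of S52 from S38 (circles) and from S44 (squares) for each of the 10 genes (top) and as the median over each gene list (bottom), with 0 as the vertical line. *Gata1* is drawn with its listed 0 in S52 counted as a level. Its place depends on the pseudocount and is not read as a fold or as a likeness to any list. The platelet and megakaryocyte list lies at -3.93 and -3.82. *Lmo2*, *Gata3* and *Ldb1* lie right of 0, which for *Ldb1* against S38 turned under the rescaling to the sum.

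The genes whose levels over the 3 libraries were most like each member were found by the Euclidean distance in log2(FPKM + 1) to every detected gene. Those of *Gata1* were *Ccl21a*, a lymphatic chemokine, *Chia1*, a chitinase, and *Ly6g6f*, a platelet membrane protein, at distances of 0.257, 0.336 and 0.346, and no gene lay within 0.25. All 3 were listed at 0 in S52. For *Gata2* the nearest was *Hsd17b11* (0.0564) among 56 genes within 0.25, for *Tal1* *Trim8* (0.0972) among 22, and for *Lyl1* *Heatr5b* (0.0598) among 139. The nearest to *Lmo2* was *Mafk* (0.0779), a small Maf factor, among 14, to *Ldb1* *Dync1i2* (0.0473) among 60, to *Gata3* *Spsb2* (0.0666) among 43 and to *Gata6* *Pafah1b3* (0.0313) among 63. With 3 libraries such a likeness mostly reflects a similar level.

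The genes beside the members in the GENCODE M21 annotation did not share their levels in general. *Pdzk1ip1*, which encodes a small membrane protein and lies 16952 bp beyond *Tal1* on the same strand, was at 15.1 FPKM in library S38, 10.1 in S44 and 0.0440 in S52, a steeper order than that of *Tal1*, while *Stil*, 13229 bp before it, was listed at 0 in all libraries. *Rpn1*, 88586 bp before *Gata2*, was at 62.6, 71.9 and 52.2 FPKM and *Dnajb8*, after it, was listed at 0. *Hdac6*, beside *Gata1*, was at 5.60, 3.48 and 5.004 FPKM, so the 0 of *Gata1* in S52 was not shared by that neighbour. Some members overlap genes on the opposite strand, and the libraries carry no strand information. *Ldb1* overlaps *Pprc1* (7.72, 9.04 and 10.2 FPKM) with 128 shared windows of 51 bases (2.97% of its windows), and *Gata5* overlaps the antisense gene *Gata5os* with 161 (4.99%). *Gata5os* was at 0.242 FPKM in S38 and listed at 0 in S44 and S52, where *Gata5* was higher. *Gata6* overlaps 1010001N08Rik with 43 shared windows (1.35%), and *Gata3* overlaps Gm13256, which has no row, with 57 (1.80%). Fragments from such windows cannot be told apart.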

How the data were processed

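For each gene symbol the authors deposited FPKM for 3 libraries of poly-A selected, unstranded RNA sequenced as paired reads of 51 bp. The submitters' processing notes name bcl2fastq 2.17, FastQC 0.11.5, Trimmomatic 0.36, TopHat2 2.1.0, Cufflinks 2.2.1 and mm10, while the study's methods describe STAR and HTSeq for counts. Which tool and annotation made the FPKM is not given in the sources used here. Members and gene lists were chosen with earlier results of these data known. FPKM are not counts, so no count model was fitted, and a single condition allowed no test (with 3 pairs an exact two-sided permutation test cannot go below 0.25).

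Values were used as deposited, with means, SDs and shares on FPKM and differences on log2(FPKM + 1), a pseudocount that understates changes of low genes. Detected genes were those whose mean FPKM was 1 or more. The genes named are the members, the genes of the lists, the 3 genes most like each detected member, and neighbouring or overlapping genes in GENCODE M21 (GRCm38). A gene that bears on the values of 0 is not reported here. Depth was estimated from the step of low values of 7077 genes with a single transcript of 800 to 4000 bp (in S38, S44 and S52, 79.0%, 77.1% and 77.1% of these values came within 0.15 of whole fragments), a method picked with the values in view. On simulated data of 7077 genes it erred by at most 0.0645%. The simulation used whole fragments and the same length rule as the estimate. It therefore does not measure the error on the deposited values. Alternatives were other thresholds, pseudocounts and scalings, and leaving out each library. Python 3.11.15, numpy 2.4.6, pandas 2.3.3 and matplotlib 3.10.9 were used.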

Additional observations from a re-analysis of the deposited data

How the results depend on the processing

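Of the alternatives for the counts, shares and ratios over the 10 genes and their lists, 54 values stayed close to the reported one and 5 moved. For shares, ratios and means, close meant within 1 SD of the 3 libraries. Leaving out 1 of 3 libraries cannot shift a mean by 1 SD. Those shares, ratios and means could therefore only stay close, which says nothing about their stability. With *Gata1* left out of the GATA sum, chosen after seeing the data, the mean share of *Gata2* was 92.3% in place of 87.0%. With a threshold of a mean of at least 10 FPKM, 4 members were detected in place of 8. The number of members whose libraries differed by over 2-fold, 1 as reported, was 3 among members at a mean of at least 0.1 FPKM, 3 with each library rescaled to a sum of 1000000, and 0 to 1 when each library was left out, with 0 without S52. Of 50 values for single genes, 46 stayed close and 4 moved, all under the rescaling to the sum, where the means became 73.7 for *Gata2*, 4.70 for *Lyl1*, 92.0 for *Lmo2* and 57.5 for *Ldb1*. The log2 ratios of *Tal1* to *Lyl1*, *Lmo2* to *Ldb1* and *Gata2* to *Gata6* kept their sign with other pseudocounts and with each library left out. Counts, shares and means cannot be negative, so their sign tells nothing. Among differences between libraries on the log2(FPKM + 1) scale, that of *Ldb1* in S52 against S38 went from 0.24 to -0.05 under the rescaling to the sum, and that of *Gata2* against S44 from -0.09 to 0.08 there and to 0.04 with an equal endothelial median. The cause of these shifts was not tested, and the sum used for rescaling includes small RNA rows of very high FPKM. The main limits are 3 libraries of 1 condition, a depth known by estimate only, values of exactly 0 that may be failed estimates in S52, and groups of 3 in which no library can be called an outlier. No paired analysis was possible because there was only 1 group of samples.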

Other observations

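Genes that share a domain or a name with the members but are not part of the complex were also read. *Gatad2a* and *Gatad2b*, subunits of the NuRD chromatin complex with a GATA-type zinc finger, were at 21.7, 28.4 and 31.8 FPKM and at 7.85, 10.1 and 11.3 FPKM in the order S38, S44 and S52. *Gatad1* was at 41.6 and 42.5 FPKM in S38 and S44 and at 18.7 FPKM in S52. *Trps1*, a GATA-type repressor, was at 2.53, 2.51 and 1.62 FPKM, and *Lmo7*, a LIM domain protein of cell junctions, was at 28.8, 20.3 and 12.9 FPKM. *Ldb3*, whose name resembles *Ldb1* but which encodes a muscle Z-disc protein, was at 0.303 and 0.180 FPKM and listed at 0 in S52.

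The GATAA letters were also counted in the promoter windows of the lists. They stood in 7 of 7 windows of erythroid genes, 5 of 7 of mast cell and basophil genes and 5 of 9 of platelet and megakaryocyte genes. Of the other blood lists, T cell and type 2 innate lymphoid genes had 4 of 9 and leukocyte genes 1 of 7. Endothelial genes had 4 of 11, lymphatic endothelial genes 1 of 6, the described targets 3 of 9 and the partner genes 4 of 33. Cardiomyocyte genes had 5 of 11, mural 2 of 4, fibroblast 1 of 3, airway 1 of 2, mesothelial 1 of 2 and alveolar type 2 genes 0 of 4. The shares were 25.4% of all 32851 promoters and 16.6% of those of genes at or above 1 FPKM on average. These are counts of letters in small lists, with no test, and say nothing about binding.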
